A study of Mus musculus with 22 samples.

Results

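The 10 genes described here build the axon and the cytoskeleton of nerve cells: the neurofilament subunits Nefl, Nefm and Nefh and their partner Ina, the microtubule genes Stmn2, Tubb3, Map2, Mapt and Dcx, and the growth cone gene Gap43. They were chosen by name, and the arrays read them with 16 of 41174 probes, or 10 of 28741 features once each gene is represented by its brightest probe. Nefm and Map2 carry the older names Nef3 and Mtap2 in the files. The brightest probe of each was well above background in every channel, and none of the 16 was saturated on any array. By the coordinates in the files, whose build is not stated, the brightest probes of Nefl (62616027 to 62616087) and Nefm (62648582 to 62648641) lie near each other on chromosome 14. Those of the other called genes lie on chromosome 19 for Ina (46575861 to 46575920), 3 for Stmn2 (8547967 to 8548026) and X for Dcx (137296358 to 137296417). Which exon or UTR a probe lies in was not annotated.

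A growing axon is filled with microtubules, hollow polymers of tubulin that carry transport, and with neurofilaments, intermediate filaments that set the calibre of the axon as it matures. Alpha-internexin is known as an early neuronal intermediate filament that precedes the neurofilament triplet, of which the heavy subunit is the last to accumulate. Doublecortin, stathmin-2 and GAP-43 are typical of neurons that are migrating or extending processes, whereas tau becomes enriched in axons and MAP2 in dendrites.

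RNA of frozen slices of whole brain was hybridised to 22 Agilent arrays with a Cy3 and a Cy5 channel, each array holding 1 animal labelled knockout and 1 control. The series is of knockout for Agtr2, the gene of the angiotensin II type 2 receptor. The E15 sample titles name that gene, and the P1 titles say only knockout. The brains came from 2 ages. Postnatal day 1 (P1) is represented by 4 knockout animals and 4 controls (8 arrays), and embryonic day 15 (E15) by 8 knockout animals and 6 controls (14 arrays). Strain, sex and the construction of the knockout are not given in the sources used here. The control animals of E15 are numbered in the labels and some serve several knockout animals, whereas those of P1 are not numbered and were taken here to follow the number of the knockout on the array.

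Median spot signals lay between 58.9 and 160.8 intensity units on the P1 arrays and between 68.8 and 158.3 on the E15 arrays, over a local background of 33 to 43 units at P1 and 34 to 49 at E15. All P1 arrays were scanned on 1 day with a later scanner software version than the E15 arrays, which were scanned on 3 days, so age and array run cannot be told apart. Whether the Agtr2 probe lies in the deleted part of the gene is not known, so it does not check the labels. At P1 the Agtr2 level ran from 66.0 to 82.3 units in knockout and from 67.1 to 75.4 in control brains (log2 knockout over control 0.11, SE 0.0814, n = 4, adjusted p = 0.722 in limma), and at E15 from 74.6 to 136 in knockout and from 70.3 to 582 in control brains (-0.39, SE 0.303, n = 8, adjusted p = 0.779). The libraries stood apart in their neighbouring tissue. Of 12 skeletal muscle genes, the 9 measured in all animals averaged 10.26 in E15 knockout 8 and 11.45 in E15 control 1 on the log2 level scale, and lay between 6.59 and 8.49 in the other E15 animals. Markers of neurons were present throughout, with 9 of 10 above background in all 16 P1 channels and all 28 E15 channels.

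The 2 dye orientations of 1 knockout and control pair agreed weakly. Across the features tested, the log2 ratio of knockout over control on the first array correlated with that on the swapped array at r between -0.27 and 0.29 in the 4 P1 replicates and between -0.18 and 0.70 in the 4 E15 replicates with the same control on both arrays. At P1 the control channels of replicates 1 and 2 differed between orientations. In replicate 1 a list of 10 hindbrain and spinal cord genes averaged 6.29 (Cy5) and 6.24 (Cy3) on the log2 level scale in the knockout channels, against 7.53 and 6.36 in the control channels. In replicate 2 it averaged 7.36 and 7.62 in the knockout channels, against 6.52 and 7.33 in the control channels. The labels do not state whether both orientations of a P1 replicate hold the same control animal, and this was not tested.

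Control brains at P1 were compared with control brains at E15 to see how the genes of the axon change over the last days before birth and the first after it. Levels are normalised single-channel intensities, averaged over the channels of an animal. They include the offset of 50 units added in background correction, which compresses the differences of dim probes. Tests were made with limma on the log2 scale over 25056 features, and a gene was called at an adjusted p under 0.05. Of the 10 genes, Nefl, Nefm, Stmn2 and Dcx rose at P1, Ina fell, and Nefh, Tubb3, Map2, Mapt and Gap43 did not pass the test. This makes 5 of 10 called, where 36.9% of all features were called, and 4 of 10 called higher, where 14% of all features were. It makes 1 of 10 called lower, where 22.9% were. Of the 10 differences, 9 lay above 0. Their median was 0.46, beside -0.08 over all features. In bulk tissue more cells of a type and more RNA per cell cannot be told apart.

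**Figure D1:**
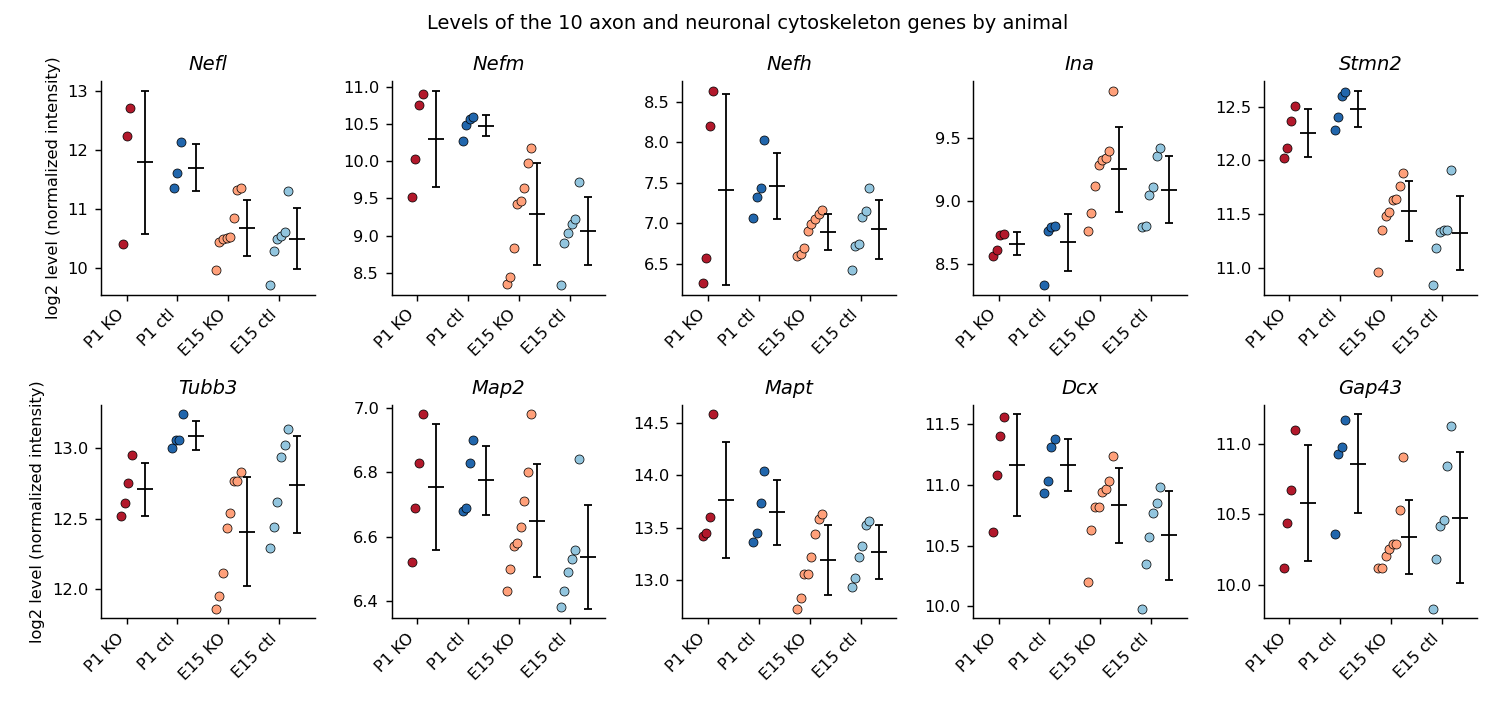
Log2 level (normalised intensity) of the 10 genes in each animal, by group, from left to right P1 knockout (KO), P1 control (ctl), E15 knockout and E15 control. Points are animals, and the bar beside them is the mean with the SD. P1 controls lie above all E15 controls for Nefl, Nefm and Stmn2, and the P1 knockout animals split into a high and a low pair for Nefh.

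By the brightest probe of each gene, the largest difference was that of Nefm, the medium neurofilament subunit. A second probe for Mapt gave a larger one, 2.17. The level of Nefm was 1520, 1230, 1430 and 1540 units in the P1 controls. In the 6 E15 controls Nefm had a lowest of 324, a median of 549 and a highest of 844 units. Every P1 control was above every E15 control, and the difference was 1.41 on the log2 scale, or 2.66-fold (95% interval 1.93 to 3.68, adjusted p = 0.000636 in limma). A dimmer probe for Nefm gave 0.96 (adjusted p = 0.0023), at 146 to 213 units in P1 controls and 72.5 to 143 in E15 controls. The gene was called under all 20 alternatives tried for this comparison. Without E15 control 1, the animal high in muscle genes, the differences were 1.43 for Nefm, 1.23 for Nefl and 1.06 for Stmn2.

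Nefl, the light subunit around which the filament assembles, had 3120, 2620 and 4500 units in P1 controls 1, 2 and 4. In the E15 controls it had a lowest level of 840, a median of 1460 and a highest of 2530 units. P1 control 3 has no value, because the spot was marked as an outlier on both of its arrays. As animal means the groups did not overlap, and the difference was 1.21, or 2.31-fold (95% interval 1.46 to 3.66, n = 3 and 6, adjusted p = 0.0106 in limma). Single channels did overlap. On the log2 level scale P1 control 1 had 12.42 and 10.80 and P1 control 2 had 10.74 and 11.97, where E15 control channels reached 11.31. The call was lost under 3 of 20 alternatives. Among these, the difference was 0.99 without P1 control 4 (adjusted p = 0.0548 in limma). With each channel scaled to its 75th percentile it was 0.69 (adjusted p = 0.112 in limma).

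Nefh, the heavy subunit, had 134, 160, 174 and 261 units in the P1 controls and a lowest of 85.6, a median of 120 and a highest of 174 units in the E15 controls. These groups overlapped, and the difference of 0.54 did not pass the test (adjusted p = 0.0759 in limma). Without E15 control 1 it was 0.64 (adjusted p = 0.0293). A dimmer probe for the same gene gave 0.46 with less spread (SE 0.0861, adjusted p = 0.00219), its levels running from 92.5 to 118 units in P1 controls and from 66.8 to 83.7 in E15 controls.

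Ina, which encodes alpha-internexin, went the other way. Its level was 446, 442, 433 and 321 units in the P1 controls, against a lowest of 443, a median of 541 and a highest of 685 units in the E15 controls. The overlap is narrow: P1 control 1 is just above E15 control 3. The difference was -0.42 (1.34-fold lower at P1, 95% interval -0.75 to -0.09 on the log2 scale, adjusted p = 0.0465 in limma), and this call was lost under 14 of 20 alternatives. These are each of 8 of the 10 controls left out (adjusted p between 0.0603 and 0.143) and 6 processing alternatives (between 0.0527 and 0.244). The animals labelled knockout give the same direction in other brains hybridised to the same arrays. There Ina had 428, 391, 425 and 376 units at P1 and between 433 and 943 units at E15, with no overlap (-0.59, adjusted p = 0.0201 in limma), and the call was lost without P1 knockout 2 (adjusted p = 0.055) or 4 (adjusted p = 0.0652).

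Among the microtubule genes, by their brightest probes, Stmn2 had the largest difference. Stathmin-2 binds free tubulin and is concentrated in growth cones. Its level was 6200, 5420, 6400 and 4980 units in the P1 controls and ran from 1830 over a median of 2590 to 3830 units in the E15 controls. The groups were well separated, by 1.16 on the log2 scale or 2.23-fold (95% interval 1.72 to 2.89, adjusted p = 0.000594 in limma). With each channel scaled to its 75th percentile in place of the intensity-dependent normalisation, it was 0.58 (adjusted p = 0.0820). A second probe for Stmn2 was close to the floor of the scale at both ages, at 74.4 to 124 units in P1 controls and 73.1 to 86.6 in E15 controls, and gave 0.15 (adjusted p = 0.385).

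Dcx, the microtubule-binding protein of migrating neurons, had 2660, 2530, 2090 and 1950 units in the P1 controls. In the E15 controls its lowest level was 1010, its median 1630 and its highest 2020 units, so that only P1 control 4 was below the highest E15 control. The difference was 0.58, or 1.49-fold (95% interval 1.13 to 1.98, adjusted p = 0.0308 in limma). The call was lost under 11 of 20 alternatives. These are E15 control 2 or 5 or P1 control 1, 2 or 3 left out (adjusted p between 0.0514 and 0.0877) and 6 processing alternatives (between 0.0501 and 0.63), among them 75th percentile scaling with a difference of 0.17. The other 2 probes for Dcx were close to the floor of the scale, where a difference can hardly show. They read 63.0 to 96.9 units in P1 controls and 64.4 to 123 in E15 controls, and gave -0.04 and -0.02 (adjusted p = 0.700 and 0.908). The first of them was well above background in 6 of the 8 P1 control channels.

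Tubb3, the beta-tubulin of neurons, was bright at both ages, with 9650, 8550, 8200 and 8530 units in the P1 controls and a lowest of 4990, a median of 7010 and a highest of 9040 units in the E15 controls. The groups overlapped and the difference of 0.35 was not called (adjusted p = 0.115 in limma). It was -0.33 when channels were scaled to their 75th percentile. Map2, the dendritic microtubule-associated protein, was read near the floor, at 104, 119, 113 and 103 units in P1 controls and 83.1 to 115 units in E15 controls (0.24, adjusted p = 0.0670). Without E15 control 4, its highest value at that age, the adjusted p for Map2 was 0.00894.

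Mapt encodes tau, and its 2 probes gave different answers. The brighter one, A_52_P509297, read 10500, 16900, 13700 and 11200 units in the P1 controls, against a lowest of 7860, a median of 9930 and a highest of 12100 units in the E15 controls. That is a difference of 0.38 with overlapping groups (adjusted p = 0.0899 in limma), and -0.33 under 75th percentile scaling. The other, A_51_P476689, read 3450 to 5560 units in P1 controls and 513 to 1610 in E15 controls, a 4.50-fold difference without overlap (2.17, SE 0.273, adjusted p = 0.000243). In the animals labelled knockout the same probe gave 1.74 (2410 to 4700 units at P1 and 676 to 1520 at E15, adjusted p = 0.000186), against 0.57 for the brighter probe (adjusted p = 0.0864). The files place the brighter probe at bases 104151121 to 104151180 of chromosome 11, on a build they do not state, and give the other the ends 104139327 and 104142487, an interval of 3161 bases. Which transcripts either probe reads was not tested.

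Gap43, a membrane phosphoprotein of growth cones, had 1950, 2030, 2310 and 1310 units in the P1 controls and a lowest of 910, a median of 1390 and a highest of 2250 units in the E15 controls. The groups overlapped widely, and the difference of 0.38 had an interval of -0.15 to 0.92 (adjusted p = 0.238 in limma).

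The RefSeq promoter table for mouse (build GRCm38.p6), which gives 250 bases before and 50 after the annotated start, matched 4 of the 10 genes: Map2, Tubb3, Ina and Dcx. The windows of the 2 called genes among them, Ina and Dcx, are shown because these genes differed between the ages in opposite directions. Capitals mark CANNTG, the E-box core that basic helix-loop-helix factors bind, which reads the same on both strands. The Ina window is chr19:47014431-47014730 on the plus strand and the Dcx window chrX:143933170-143933469 on the minus strand, both printed 5′ to 3′ along the gene.
Ina: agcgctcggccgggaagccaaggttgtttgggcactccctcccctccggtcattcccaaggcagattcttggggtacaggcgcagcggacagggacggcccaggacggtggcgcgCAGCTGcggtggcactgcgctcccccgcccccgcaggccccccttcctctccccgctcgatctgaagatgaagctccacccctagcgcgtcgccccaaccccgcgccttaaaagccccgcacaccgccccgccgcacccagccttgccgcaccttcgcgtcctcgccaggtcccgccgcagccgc
Dcx: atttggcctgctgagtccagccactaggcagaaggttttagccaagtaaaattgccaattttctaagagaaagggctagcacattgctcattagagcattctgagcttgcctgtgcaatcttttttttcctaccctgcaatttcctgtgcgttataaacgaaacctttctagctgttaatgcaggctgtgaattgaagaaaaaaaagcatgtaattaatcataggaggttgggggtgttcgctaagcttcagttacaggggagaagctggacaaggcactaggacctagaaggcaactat
The Ina window is 71.7% G and C and holds 1 match. The Dcx window is 43.0% G and C and holds 0, as do a second Dcx window and those of Map2 (77.7%) and Tubb3 (67.3%). Of all 32851 windows of this length 72.3% hold at least 1 match, and their median G and C content is 52.7%.

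In the animals labelled knockout, the same age comparison called 2 of the 10 genes by their brightest probes, where 27% of all features were called. Stmn2 rose, with 5290, 4460, 5840 and 4150 units at P1 and between 1990 and 3760 at E15 (0.73, or 1.66-fold, adjusted p = 0.00459 in limma, but 0.17 and 0.646 under 75th percentile scaling), and Ina fell as given above. Nefl (1.11, adjusted p = 0.0760) and Nefm (1.01, adjusted p = 0.0600) did not pass the test. Nefm had 733, 1910, 1040 and 1720 units in P1 knockout animals 1 to 4 and between 326 and 1160 at E15. Without P1 knockout 1 the differences were 1.80 for Nefl (adjusted p = 0.00327) and 1.27 for Nefm (adjusted p = 0.0374). Nefh had 76.7, 295, 95.2 and 398 units at P1 and between 97.3 and 144 at E15. Dimmer probes were called in these animals for Nefm (0.90, adjusted p = 0.00342 in limma) and Nefh (0.47, adjusted p = 0.00434). Those for Stmn2 and Dcx were not. The animals labelled knockout share arrays with the controls, so the comparisons are not independent.

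Beyond the 10 genes, control brains at P1 differed from those at E15 in other parts of the neuronal cytoskeleton, listed from textbook knowledge. The counts stand beside 14% of all features called higher and 22.9% called lower. Of 9 genes of the axon initial segment and axonal adhesion, 7 rose and 0 fell, among them L1cam (0.75, adjusted p = 0.000364), Ncam1 (0.83, adjusted p = 0.00128) and Nfasc, which encodes neurofascin (1.12, adjusted p = 0.00269). Of 11 axonal motor genes, 5 rose and 0 fell, led by the kinesin Kif1a (1.52, adjusted p = 7.48e-05), Kif5b (0.92, adjusted p = 0.000631) and the dynein chain Dync1i1 (1.41, adjusted p = 0.000935). Of 16 other microtubule-binding and regulating proteins, 8 rose and 1 fell, and Mapre3, a plus-end protein, was at 1.34 (adjusted p = 2.88e-05), Pafah1b1, the lissencephaly gene Lis1, at 1.37 (adjusted p = 7.35e-05) and Map1a at 0.93 (adjusted p = 0.00184), all by limma. The calls of Ncam1 and Nfasc were each lost under 1 of 20 alternatives, and the other 7 named here under none. The list medians were 0.71, 0.30 and 0.43, beside -0.08 over all features.

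In other lists the calls were fewer or went the other way. The shares of other tubulins called higher and called lower were both under those of all features (14% and 22.9%). Of 11 other tubulins, 1 rose (Tubb2a, 0.62, adjusted p = 0.0346) and 2 fell (Tuba1c, -1.46, adjusted p = 0.000661, and Tubb6, -1.16, adjusted p = 0.0461), with a median of -0.01. The calls of Tubb2a and Tubb6 were lost under 11 and 13 of 20 alternatives. Of 11 genes of the growth cone and the collapsin response, Dpysl3 rose (0.81, adjusted p = 0.00490), Dbn1, which encodes drebrin, fell (-0.97, adjusted p = 0.00133) and Dpysl4 fell (-0.66, adjusted p = 0.00318). Of the 4 other intermediate filament genes 2 fell, and these were the filaments of progenitors and radial glia, Nes (-1.31, adjusted p = 9.49e-05) and Vim (-1.69, adjusted p = 0.000235). Prph, the filament of peripheral neurons, was at -0.52 (adjusted p = 0.211), all by limma.

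**Figure D2:**
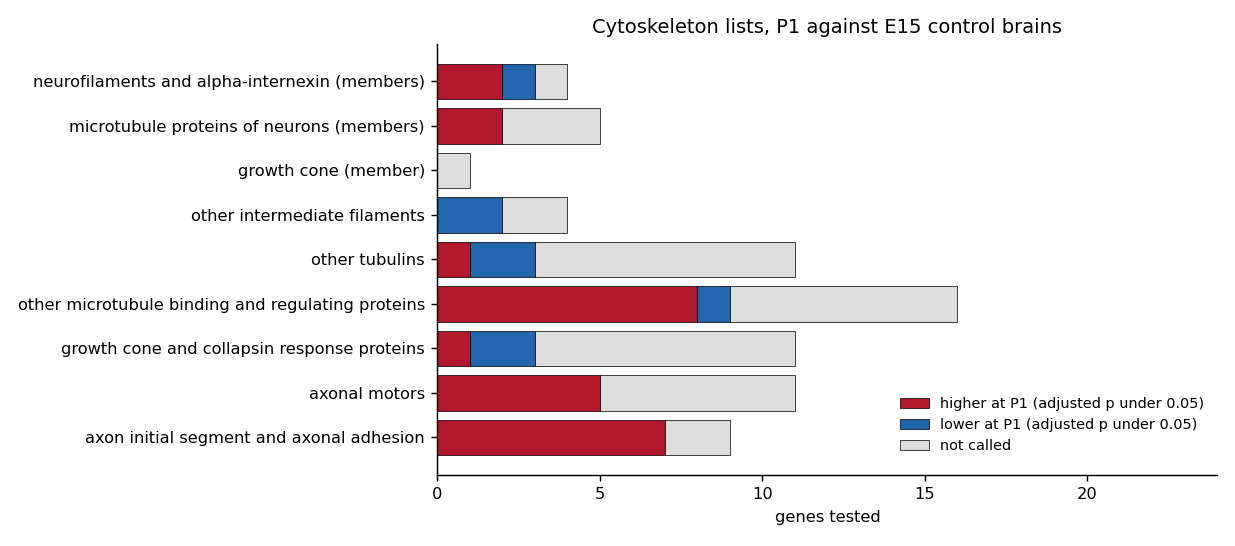
Number of genes called higher (red), called lower (blue) or not called (grey) in P1 against E15 control brains, for each cytoskeleton list. Called genes are higher in all cases among the motors (5 of 11) and the axon initial segment and adhesion genes (7 of 9), and lower in all cases among the other intermediate filaments (2 of 4).

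Markers of cell types moved with age as well, to be read against 14% of all features called higher, 22.9% called lower and a median of -0.08. Of 10 neuron markers, 8 rose and 1 fell, with a median of 0.96, and the mean log2 level of the list ran from 9.51 to 9.64 in P1 controls and from 8.45 to 9.08 in E15 controls. All 10 markers of dividing cells fell (median -0.92), 4 of 10 neural progenitor markers fell and 2 rose (median -0.32), and 5 of 6 astrocyte markers rose (median 0.83). Of 10 tested forebrain genes 4 fell and 0 rose (median -0.75), and of 10 meninges and fibroblast genes 5 fell and 0 rose (median -1.29). The mean log2 level of the meninges list was uneven at E15, at 10.69 in control 1 and 9.68 in control 2. It was 8.11 to 8.96 in the other E15 controls and 7.73 to 8.03 in P1 controls. The part of these shifts in the values of the 10 genes was not tested.

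Knockout over control was compared to see whether these genes respond to loss of the receptor at either age. None of the 10 genes was called at either age in limma, where 0% of all features were called at P1 (0 of 24500) and 0% at E15 (0 of 24047). At an unadjusted p under 0.05 there were 2295 features at P1 and 1636 at E15. With the scanner software's own processed signals, 0 features were called at P1 and 1 at E15. Of the 10 genes, 3 lay above 0 and 7 below at P1 (median -0.03, beside 0.01 over all features, adjusted p between 0.449 and 1), and 6 above and 4 below at E15 (median 0.17, beside -0.01, adjusted p between 0.724 and 0.936). The difference of the effect between the ages was called for 0 of 10 genes (adjusted p between 0.836 and 0.999 in limma). Of all features 0.366% were called (0.0298% higher and 0.337% lower). Values below 0 were found for 9 of 10 genes, beside 45.8% of all features (medians -0.19 and 0.01).

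**Figure D3:**
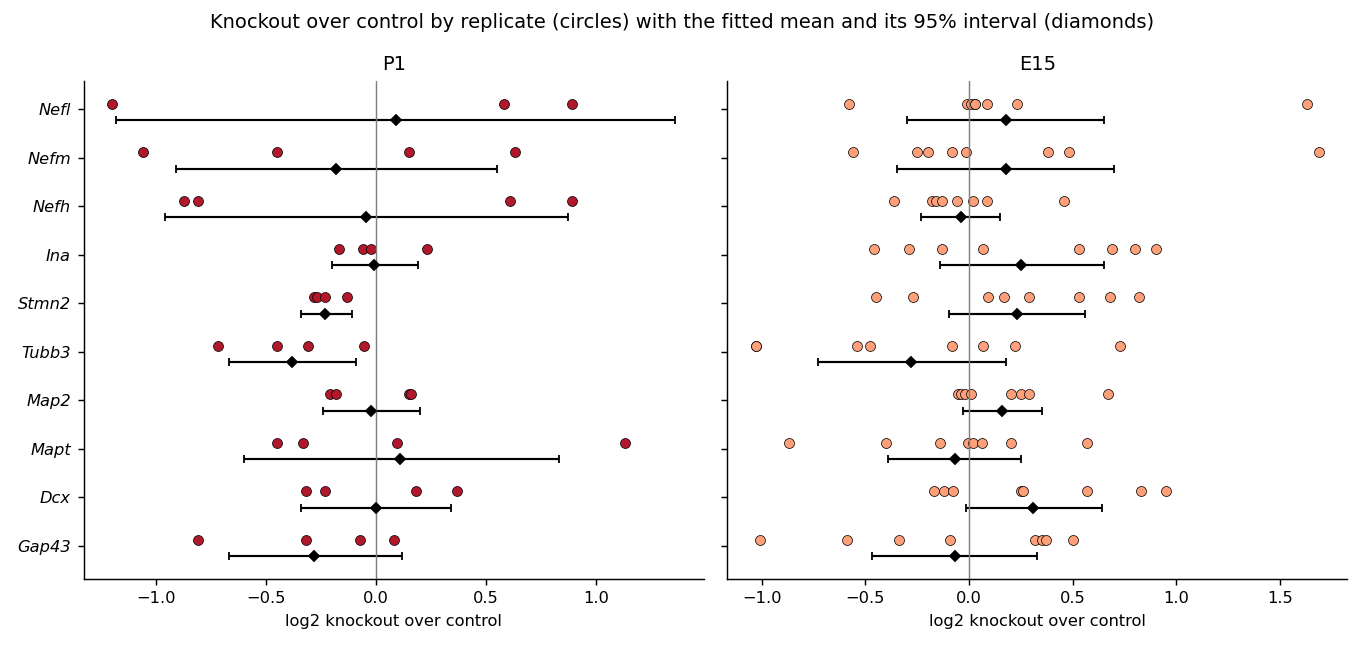
Log2 knockout over control of the 10 genes at P1 (left) and E15 (right). Circles are replicates, and diamonds are the fitted mean with its 95% interval. All 4 P1 replicates lie below 0 for Stmn2 and for Tubb3, and the neurofilament genes spread on both sides of 0.

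At P1 the log2 ratio of Nefm was -1.06, 0.63, -0.45 and 0.15 in replicates 1 to 4, a mean of -0.18 with an interval of -0.91 to 0.55 (adjusted p = 0.886 in limma). That of Nefh was -0.81, 0.89, -0.87 and 0.61 (mean -0.05, interval -0.96 to 0.87, adjusted p = 0.985). That of Nefl was -1.20, 0.89 and 0.58 in replicates 1, 2 and 4 (mean 0.09, interval -1.18 to 1.36, adjusted p = 0.972). Averaged over both arrays, all subunits measured were below 0 in replicates 1 and 3 and above 0 in replicates 2 and 4. For Nefl and Nefh both arrays of each measured replicate had that sign. For Nefm the arrays with the knockout in Cy3 gave -2.52, 0.36, -1.05 and 0.67 in replicates 1 to 4. Those with it in Cy5 gave 0.41, 0.90, 0.14 and -0.37, the opposite sign in replicates 1, 3 and 4. The dimmer probes had P1 means of 0.055 for Nefm (SE 0.152, against 0.285 for the brighter probe) and -0.033 for Nefh (SE 0.106, against 0.357). The offset compresses the differences of dim probes.

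At E15 one replicate stood out for the same genes. In replicate 8 the log2 ratio was 1.63 for Nefl, 1.69 for Nefm and 0.46 for Nefh, the highest value of each. In the other 7 replicates Nefl ran from -0.58 to 0.23, Nefm from -0.56 to 0.48 and Nefh from -0.36 to 0.09. The means over all 8 were 0.18, 0.18 and -0.04 (adjusted p = 0.844, 0.854 and 0.920 in limma), and without replicate 8 they were -0.03 for Nefl and -0.04 for Nefm.

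At P1, genes that mark regions of the brain took the same signs as these values or the opposite ones. The median log2 ratio of 10 hindbrain and spinal cord genes (Hox genes and the glycine transporter Slc6a5) was -0.67, 0.45, -0.80 and 0.86 in P1 replicates 1 to 4, so that replicates 1 and 3 were low and 2 and 4 high, as for the neurofilaments. Forebrain genes gave 0.72, -0.49, 0.72 and -0.17, the opposite order of signs. The match was not particular to the hindbrain list. Astrocyte markers gave -0.67, 0.11, -0.47 and 0.04, and oligodendrocyte markers -0.34, 0.05, -0.37 and 0.15. Neural progenitor markers gave -0.02, 0.08, -0.13 and 0.12, the same order again. The other cell type lists did not, among them neurons at -0.23, -0.19, -0.25 and 0.22. In P1 replicates 1 and 2 the 2 arrays differed. With the knockout in Cy3 the hindbrain list was at -1.23 and 1.02 and the forebrain list at 1.39 and -0.80. With the knockout in Cy5 the hindbrain list was at -0.05 and 0.06 and the forebrain list at -0.07 and -0.05. In E15 replicate 8 the hindbrain list was at 1.14 and the forebrain list at -1.66, with meninges and fibroblast genes at 2.53 and skeletal muscle genes at 3.27. Not all other E15 replicates followed the hindbrain list: in replicate 7 it was at -0.60 with Nefl at 0.01 and Nefh at 0.02, and in replicate 3 it was at 0.23 with Nefl at its lowest, -0.58. All 10 hindbrain genes and at least 10 of 11 forebrain genes were tested at each age. The part of regional make-up, cell types or neighbouring tissue in the neurofilament values was not tested.

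**Figure D4:**
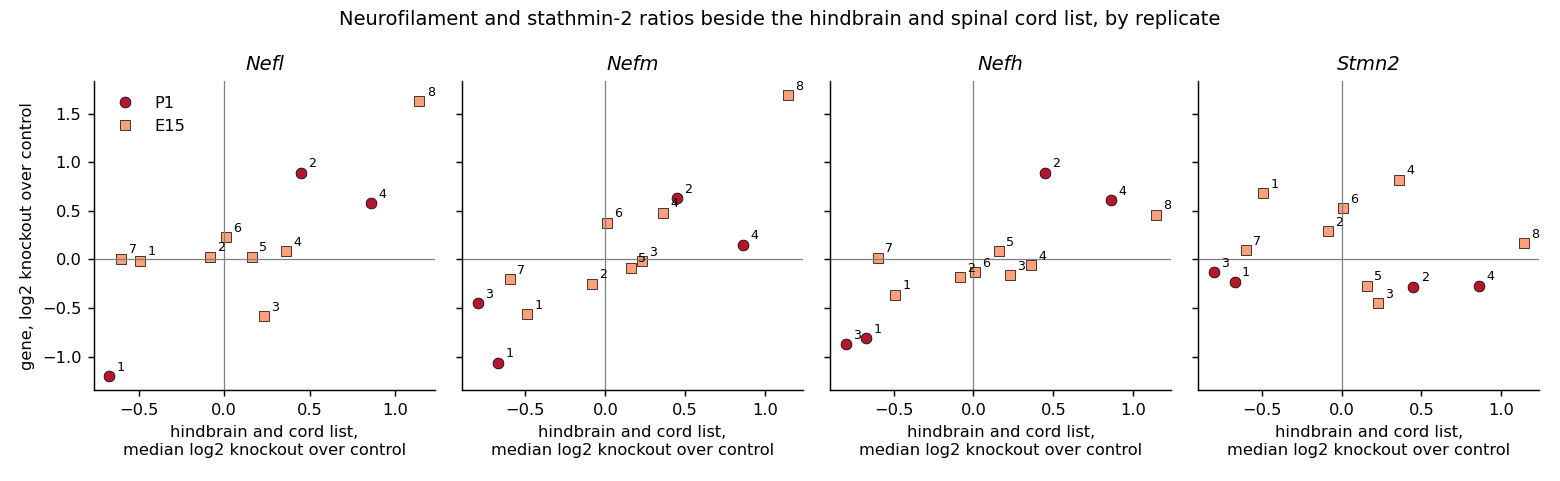
Log2 knockout over control of Nefl, Nefm, Nefh and Stmn2 (vertical) against the median log2 ratio of the hindbrain and spinal cord list (horizontal), with circles for P1 and squares for E15 replicates, labelled by replicate number. For the neurofilaments, P1 replicates 1 and 3 are low on both axes and 2 and 4 high, and E15 replicate 8 is the highest of its age. Stmn2 lies between -0.28 and -0.13 in all 4 P1 replicates.

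Single channels at P1 showed the same side by side. In replicate 1 the knockout channels gave Nefl at 10.72 (Cy5) and 10.09 (Cy3) on the log2 level scale, with the hindbrain list at 6.29 and 6.24. The control channels of that replicate gave 12.42 and 10.80, with the list at 7.53 and 6.36. In replicate 2 the knockout channels gave 12.45 and 12.03 with the list at 7.36 and 7.62, and the control channels 10.74 and 11.97 with the list at 6.52 and 7.33. Of these 8 channels, the 4 with the list under 7 had Nefl under 11 and the 4 with the list over 7 had it over 11. These bounds were chosen after seeing the data. Nefm did not part in this way, with 10.32 in a channel with the list at 6.29 and 10.26 in one with it at 7.33. At E15, channels with the list over 7 had Nefl from 10.2 to 11.73. The ratio of Nefm in replicate 1 was 0.41 on the array with the knockout in Cy5 and -2.52 on the swapped array, so the replicate mean rests on a pair of arrays that disagree.

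Ina showed no such spread at P1. Its log2 ratio was -0.06, -0.17, -0.02 and 0.23 (mean -0.01, interval -0.20 to 0.19, adjusted p = 0.988 in limma). At E15 it ran from -0.46 to 0.90, with 5 of 8 replicates above 0 (mean 0.25, interval -0.14 to 0.65, adjusted p = 0.75).

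For Stmn2 the P1 ratios averaged over both arrays were -0.23, -0.28, -0.13 and -0.27 in replicates 1 to 4. The arrays behind them differed more, with -0.69 (knockout in Cy3) and 0.42 (knockout in Cy5) in replicate 3. All 4 replicates were below 0, and the mean was -0.23 (interval -0.34 to -0.11, unadjusted p = 0.00394 and adjusted p = 0.449 in limma), which fails the correction over all features. On the arrays with the knockout in Cy5 the mean was -0.06, and on those with the knockout in Cy3 it was -0.39. The dim second Stmn2 probe gave 0.08 at P1 (adjusted p = 0.725). At E15 Stmn2 ran from -0.45 to 0.82, with 6 of 8 replicates above 0 (mean 0.23, interval -0.10 to 0.56, adjusted p = 0.736), and the difference between the ages was -0.46 (interval -0.93 to 0.01, adjusted p = 0.836).

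Tubb3 was also below 0 in all 4 P1 replicates, at -0.72, -0.45, -0.05 and -0.31 (mean -0.38, interval -0.67 to -0.09, adjusted p = 0.481 in limma). At E15 it ran from -1.03 to 0.73, with 5 of 8 below 0 (mean -0.28, interval -0.73 to 0.18, adjusted p = 0.762). Of 11 other tubulins, 11 had a mean below 0 at P1 and 9 at E15, with medians of -0.32 and -0.08 and 0 called at either age. Several other lists also lay mostly below 0 at P1: 10 of 11 axonal motors, 10 of 11 growth cone genes, 12 of 16 other microtubule proteins and 6 of 6 astrocyte markers, beside 45.2% of all features. Others did not: 9 of 10 forebrain genes and 5 of 5 erythroid genes lay above 0. Meninges and fibroblast genes split 5 and 5, and axon initial segment and adhesion genes 4 above and 5 below. Under median centring of each array in place of loess the P1 mean was -0.18 for Tubb3 and -0.05 for Stmn2.

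For the remaining genes the 95% interval of the mean included 0 at both ages. Gap43 gave -0.81, -0.32, -0.07 and 0.08 at P1 (mean -0.28, adjusted p = 0.626 in limma) and ran from -1.01 to 0.50 at E15 (mean -0.07, adjusted p = 0.936). Dcx gave 0.18, -0.23, 0.37 and -0.32 at P1, averaging to a value near 0 (interval -0.34 to 0.34, adjusted p = 1), and ran from -0.17 to 0.95 at E15 (mean 0.31, interval -0.02 to 0.64, adjusted p = 0.724). Map2 lay between -0.21 and 0.16 at P1 (mean -0.02, interval -0.24 to 0.20) and between -0.05 and 0.67 at E15 (mean 0.16, interval -0.03 to 0.35). Mapt ranged from -0.45 to 1.13 at P1, where replicates 2 and 4 have a value from 1 array only (mean 0.11, interval -0.60 to 0.83), and from -0.87 to 0.57 at E15 (mean -0.07, interval -0.39 to 0.25). The second Mapt probe gave -0.45 at P1 (SE 0.147, adjusted p = 0.5) and 0.02 at E15 (adjusted p = 0.985).

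Across the 8 E15 replicates the log2 ratios of the neurofilament genes had Pearson's r of 0.85 for Nefl and Nefm, 0.84 for Nefm and Nefh and 0.80 for Nefl and Nefh. These rest on replicate 8, since without it, a choice made after seeing the data, they were 0.22, 0.41 and 0.15 over 7 replicates. Over all 45 pairs of the 10 genes the median r was 0.20 and 30 were above 0. These are descriptions over replicates that share arrays and control animals.

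Among 18185 genes, those whose level followed Nefm most closely over the 10 control animals were Atp1b1 (r = 0.982), Snhg11 (0.977), Hpcal1 (0.976), Olfm1 (0.970) and Rab6b (0.970). The closest to Ina were BC030500 (0.969), Hexim2 (0.962), Sfswap (0.951), Nog (0.951) and Vps51 (0.946). These are descriptions over 10 animals of 2 ages, so that any gene with a like age difference scores high. Atp1b1, a subunit of the sodium pump, differed by 1.93 between P1 and E15 controls.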

How the data were processed

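Whole-brain RNA of 12 mice labelled knockout and 10 controls was measured on 22 arrays. Per the labels' protocols, total RNA was treated with DNase, linearly amplified and labelled with Cy3 or Cy5. The deposited files give, per spot and dye, a mean intensity and a median background intensity that were not normalized, per the file headers, beside processed intensities that the scanner software had detrended and dye-normalized. The log10 ratios deposited for each array are red over green of those processed signals, per the file headers, and the deposited matrix holds the same values within 0.005, with dye orientation not turned.

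Mean intensities were corrected by normexp (offset 50) and by loess within each array, with control spots given no weight. Spots marked as outliers were left out, spots of 1 probe were averaged, and ratios were turned to knockout over control, 1 value per knockout animal. For E15 replicates 3 and 4, with 1 array each, the mean dye effect of the others was subtracted. Single channels were separated after Aquantile normalization and averaged per animal. Of 41174 probes, 33080 had a symbol, through RefSeq's mouse genes (GRCm38.p6) or the files. The brightest probe stood for a gene. Features well above background in 50% of the channels of the age were kept (of either age for levels, of both for the difference of the effect).

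Tests used limma 3.58.1 in R 4.3.3 (with statmod 1.5.0 and version 1.17.8 of data.table) with Benjamini-Hochberg adjustment over all features at 0.05. The E15 fit and the difference of the effect took sets of replicates that share controls as a random block (consensus correlations 0.0374 and 0.0771). The scripts were tested on simulated data. Plots were made in Python 3.11.15 (matplotlib 3.10.9). Per the series design the replicates are biological, and the number of arrays limits the precision. The 10 genes are all named. Of each other list at most 3 are named, those with the lowest p in the control comparison, and 5 genes are named as most alike in level to the genes with the largest and the smallest age difference. The 10 genes, the lists and the rules were chosen with earlier results of these data known. Alternatives covered the background correction, normalization, filter, choice of probe, outlier spots, dye, blocks and each animal left out.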

Additional observations from a re-analysis of the deposited data

Results flagged for a closer look

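Of 57 groups of 4 to 10 samples examined, 5 had a sample far from the others, and chance alone marks about 1 in 20. In E15 replicate 8 the log2 knockout over control was 1.63 for Nefl, where the nearest replicate was at 0.23, and 1.69 for Nefm, where the nearest was at 0.48. In E15 replicate 4 that of Map2 was 0.67, where the nearest was at 0.29. The log2 level of Mapt in P1 knockout 4 was 14.58, where the nearest P1 knockout was at 13.60, and that value rests on 1 array. The log2 level of Ina in P1 control 4 was 8.33, where the nearest P1 control was at 8.76, and without that animal the age difference of Ina was -0.31 (adjusted p = 0.143 in limma).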

How the results depend on the processing

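The number of arrays and the share of spots above background (62.3% to 95.1% at P1, 68.6% to 93.0% at E15) limit what was detectable, and dim probes are compressed toward the offset. All P1 arrays share 1 scan day, so no scan-day block was run there. Values with 1 animal left out kept the full consensus correlation. The causes of the changes below were not tested.

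Knockout over control called 0 features at P1 under all alternatives. At E15 it called 0, but 1 with processed signals, 1 with the deposited matrix and 0 to 1 with 1 replicate left out. The difference of the effect called 86, but 0 with processed signals, 0 with the matrix, 0 with outlier spots kept, 164 with no filter, 2 with the strict filter, 0 with the replicate block, and 41 to 153 with 1 replicate left out. The control age comparison called 9246, but 5244 with the replicate block, 5177 from Cy5 alone and 6937 to 9670 with 1 animal left out. Of the 10 genes it called 5, but 3 with processed signals, 3 with 75th percentile scaling, 3 with the replicate block, 2 from Cy3, 3 from Cy5 and 3 to 6 with 1 animal left out. The knockout age comparison called 6753, and 4390 to 7355 with 1 animal left out. Of the 10 genes it called 2, but 4 with processed signals, 1 with 75th percentile scaling, 4 with the mean of probes, 4 with the replicate block, 4 from Cy5 and 1 to 4 with 1 animal left out. Animals with the same number at both ages are different animals, and their deviations correlated at -0.15 to 0.21 in controls and -0.17 to 0.13 in knockouts, with 1 of 4 best with its own number in each.

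Signs turned in 49 of 1120 values of single genes. With 75th percentile scaling the age difference was -0.33 for Tubb3 and -0.33 for Mapt in controls, and -0.35 for Tubb3, -0.17 for Mapt, -0.069 for Gap43 and -0.064 for Dcx in knockouts, where it was -0.026 for Tubb3 from Cy3 and -0.00032 for Gap43 from Cy5. At E15 knockout over control was 0.029 for Nefh with processed signals and 0.028 with the matrix, 0.078 for Mapt and 0.039 for Gap43 with median centring, and 0.10 for Mapt with outlier spots kept. Within scan day 3 it was -0.12 for Nefl and -0.089 for Nefm, and within days 1 and 2 it was 0.11 for Nefh, -0.088 for Ina and 0.018 for Mapt. Without replicates 1, 4 and 8, chosen after seeing the data, it was -0.058 for Nefl and -0.036 for Nefm. At P1 it was 0.018 for Ina with median centring, -0.15 for Nefl with outlier spots kept, and -0.17 for Mapt and -0.068 for Dcx with the mean of probes. By dye orientation, chosen after seeing the data, it was 0.27 for Nefm and -0.093 for Dcx with the knockout in Cy5, and -0.13 for Nefl, 0.071 for Ina, 0.017 for Map2, -0.11 for Mapt and 0.011 for Gap43 with it in Cy3. With 1 replicate left out, the E15 values ran from -0.03 to 0.29 for Nefl, -0.035 to 0.28 for Nefm, -0.11 to 0.0043 for Nefh, -0.16 to 0.044 for Mapt and -0.14 to 0.076 for Gap43. The P1 values ran from -0.31 to 0.74 for Nefl, -0.45 to 0.11 for Nefm, -0.36 to 0.23 for Nefh, -0.087 to 0.048 for Ina, -0.082 to 0.042 for Map2, -0.23 to 0.30 for Mapt and -0.12 to 0.11 for Dcx.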
